A study of Homo sapiens with 5 samples.

Results

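The Notch genes described here are 3 receptors (NOTCH1, NOTCH2 and NOTCH3), 3 ligands (JAG1, JAG2 and DLL1), the DNA-binding effector RBPJ and 3 transcription factors that Notch signalling is known to switch on (HES1, HEY1 and HEY2). They were chosen by symbol: every probe set that the array annotation assigns to 1 of these 10 symbols alone was read, which gave 28 of the 41091 single-gene probe sets and all 10 genes among the 19775 genes measured. The cells were MDA-MB-231, an established human breast cancer cell line that lacks the oestrogen receptor and has a mesenchymal appearance. SAHA arrays (n = 2) came from cells given 2 uM SAHA (suberoylanilide hydroxamic acid, vorinostat), an inhibitor of the histone deacetylases that take acetyl groups off histones and other proteins. DMSO arrays (n = 3) came from the same line given the vehicle DMSO. Both groups were collected after 30 h, and total RNA was read on 1-colour oligonucleotide arrays with several probe sets for many genes. No genotype, transgene or other treatment separates the groups in the labels, although a transfection appears in the extraction text and in no other label. Whether the replicates were separate cultures is not stated, and the p-values below therefore describe array-to-array spread that may be technical. In such bulk RNA, fewer cells expressing a gene and less RNA per cell cannot be told apart.

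Notch receptors are single-pass membrane proteins that are cut when a ligand on a neighbouring cell pulls on them. A sheddase of the ADAM family makes the outer cut and gamma-secretase makes the cut within the membrane, which frees the intracellular domain. That domain enters the nucleus, joins RBPJ and a Mastermind-like coactivator on DNA and turns RBPJ from a repressor, which recruits histone deacetylase complexes, into an activator. HES and HEY factors, which are basic helix-loop-helix repressors, are among the best known targets. In breast cancer the pathway is studied for its part in growth, stem-like cells and endocrine-negative tumours.

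Values are given as log2 of the deposited intensity, and a difference is the SAHA mean minus the DMSO mean on that scale. Median log2 intensity was 6.47 and 6.51 on the SAHA arrays and 6.49 to 6.50 on the DMSO arrays. The 6 mesenchymal markers of the line (VIM, ZEB1, CD44, AXL, CAV1 and MSN) lay between 11.01 and 14.03 on every array, and 2 of them (AXL and MSN) fell; their summed linear intensity was 49437 to 53883 in SAHA and 58193 to 58649 in DMSO. The 6 measured markers of leukocytes, endothelium, glia and liver lay between 3.41 and 7.67, with sums of 419 to 450 in SAHA and 417 to 443 in DMSO. Among them PTPRC, at 3.41 to 3.87, was called lower (-0.34, limma adjusted p = 0.0176). The 7 luminal genes lay between 4.41 and 9.49, with sums of 1243 to 1279 in SAHA and 1420 to 1544 in DMSO. Of these, CDH1 rose by 1.64 on the log2 scale and ERBB2 and GATA3 fell, while ESR1 was 6.97 to 7.04. GATA3, at 9.15 to 9.49, and ERBB2, at 8.29 to 9.14, lay above the median of every array. The part of these markers in the results was not tested. In the control for actin RNA integrity the 3' minus 5' difference was 2.16 and 2.04 on the SAHA arrays and 3.29, 2.08 and 2.22 on the DMSO arrays, so that DMSO 1 stood apart. The polyadenylated RNAs added as controls (24 probe sets) were higher in SAHA by a median of 0.39, and the 5 ribosomal RNA control probe sets by a median of 1.16; in every one of both kinds the SAHA arrays lay above the DMSO arrays. Centring each array on the polyadenylated controls put the median gene at -0.40, against -0.03 as deposited, so the differences below are relative to the bulk of the genes, and the part of these controls in the results was not tested.

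Of the 10 Notch genes, 3 rose (HES1, HEY1 and NOTCH2) and 1 fell (NOTCH1) in limma, with p-values adjusted over all genes by Benjamini-Hochberg and a threshold of 0.05, while 6 did not pass. Over all 19775 genes 14% were called higher and 15.6% lower, 29.6% in either direction. The Notch genes had a median difference of 0.07 against -0.03 for all genes. The SAHA arrays lay wholly above the DMSO arrays for 4 of them and wholly below for 1, against 22.1% and 26% of all genes (48.1% in either direction). Without DMSO 1, 2 of the 10 rose (HES1 and HEY1) and 1 fell (NOTCH1). Centred on the polyadenylated controls, NOTCH3 (-0.42), JAG1 (-0.38), JAG2 (-0.52) and DLL1 (-0.56) were also called lower, and of the risers only HES1 was still called. One gene, HES1, passed with a change of at least 2-fold, which 5.75% of all genes did.

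**Figure D1:**
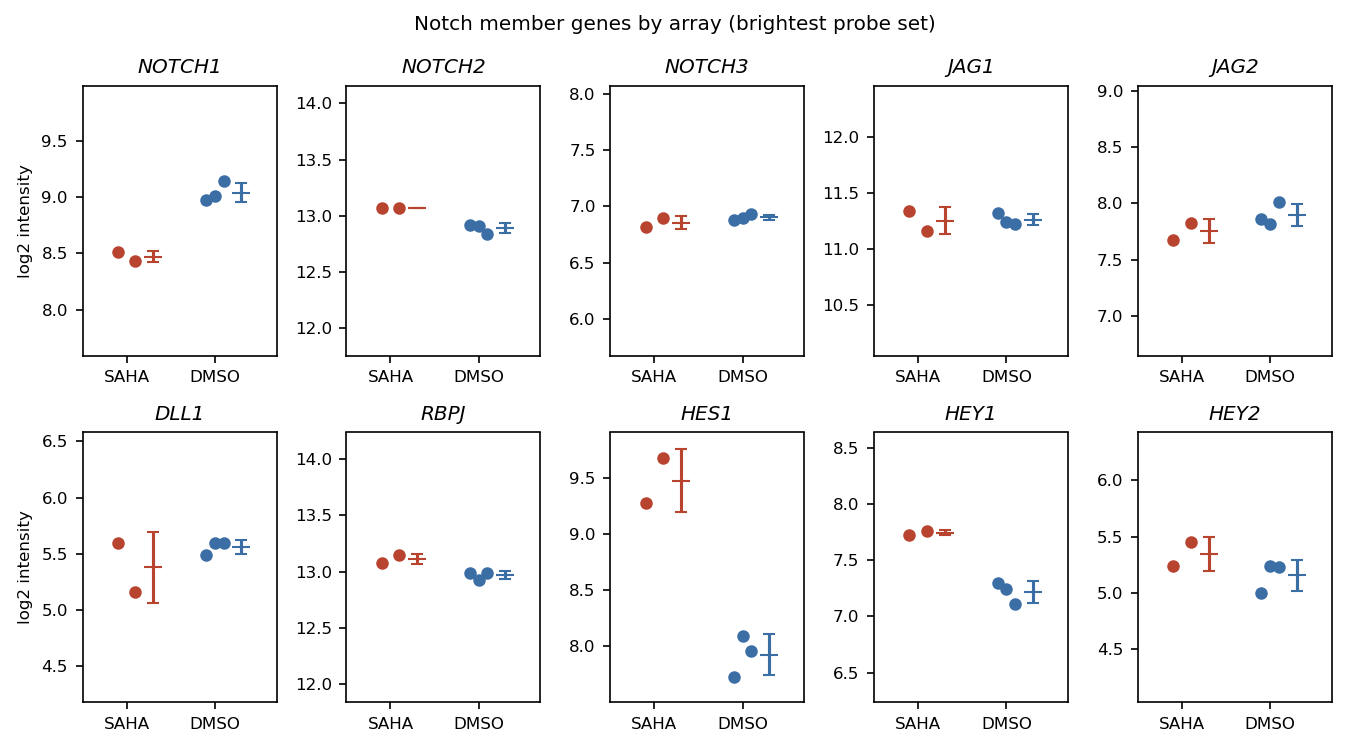
Log2 intensity of the 10 Notch genes on each array, read from the brightest probe set of each gene, with SAHA (red, n = 2) left of DMSO (blue, n = 3). Points are arrays and bars are mean ± SD, and every panel spans the same range of log2 units. The SAHA points of HES1, at 9.28 and 9.68, lie well above the DMSO points, those of HEY1, NOTCH2 and RBPJ lie above by less, and those of NOTCH1 lie below.

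HES1 carried the largest change of the 10. HES1 is a short-lived repressor of differentiation genes that also represses its own promoter. Its promoter is a standard example of a Notch-controlled one, and RefSeq's 150 bases before the HES1 start (GRCh38.p14, chr3:194135998-194136147, plus strand) are shown because they hold the letters that RBPJ is known to read. TGGGAA, the short form of the RBPJ core, is in capitals on its 2 occurrences:
HES1: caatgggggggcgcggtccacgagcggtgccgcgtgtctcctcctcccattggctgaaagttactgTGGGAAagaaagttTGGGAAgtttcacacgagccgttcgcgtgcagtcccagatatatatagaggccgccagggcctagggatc
The first occurrence, at bases -84 to -79 from the start, is preceded by G and so is also a GTGGGAA, the longer core, while the second, at -70 to -65, is preceded by T and is not.

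HES1 on its brightest probe set (203394_s_at) read 9.28 and 9.68 in SAHA, against 7.73, 8.09 and 7.96 in DMSO. Both SAHA arrays lay more than 1 log2 unit above the highest DMSO array, and SAHA 2 was the higher of the pair. The means were 9.48 ± 0.28 (SD, n = 2) in SAHA and 7.93 ± 0.18 (SD, n = 3) in DMSO, a difference of 1.55 ± 0.17 (SE), or 2.93-fold (limma adjusted p = 0.00368). The difference was larger than that of 98.8% of all genes. It was 1.45 without DMSO 1 (limma adjusted p = 0.0195), and 1.18 when arrays were centred on the polyadenylated controls.

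The other HES1 probe sets moved much less. Probe set 203395_s_at read 7.60 and 7.50 in SAHA, against 7.33, 7.27 and 7.33 in DMSO, a difference of 0.24 ± 0.05 (SE). It passed among all single-gene probe sets (limma adjusted p = 0.036), of which 11% were called higher, but its call was lost when any DMSO array or SAHA 1 was left out (limma adjusted p = 0.0885 to 0.106), and centring on the polyadenylated controls gave -0.14. Probe set 203393_at, which the annotation draws from the same sequence record as 203394_s_at, read 4.61 on both SAHA arrays and 4.44, 4.61 and 4.61 in DMSO. Only 2 distinct values occurred over the 5 arrays, and the difference was 0.06 ± 0.07 (SE, limma adjusted p = 0.612).

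The difference between the probe sets was itself tested in a limma fit over all 42435 pairs of probe sets of one gene, of which 14.8% passed. The response of 203394_s_at exceeded that of 203395_s_at by 1.31 ± 0.18 (SE, limma adjusted p = 0.00425) and that of 203393_at by 1.49 ± 0.14 (SE, limma adjusted p = 0.00109). With the 3 probe sets averaged the HES1 difference was 0.61 (limma adjusted p = 0.00283), and without probe sets that can share sequence between transcripts (names ending in _s_at or _x_at) only 203393_at remained, at 0.06 (limma adjusted p = 0.605). On the deposited scale 203394_s_at and 203395_s_at thus lay higher in SAHA, and the size rested on 203394_s_at. The small positive difference of 203393_at came from DMSO 1 alone and was 0 without that array. Centred on the polyadenylated controls 203395_s_at and 203393_at turned negative (-0.14 and -0.32). Where on the transcript each probe set lies was not analysed here.

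**Figure D2:**
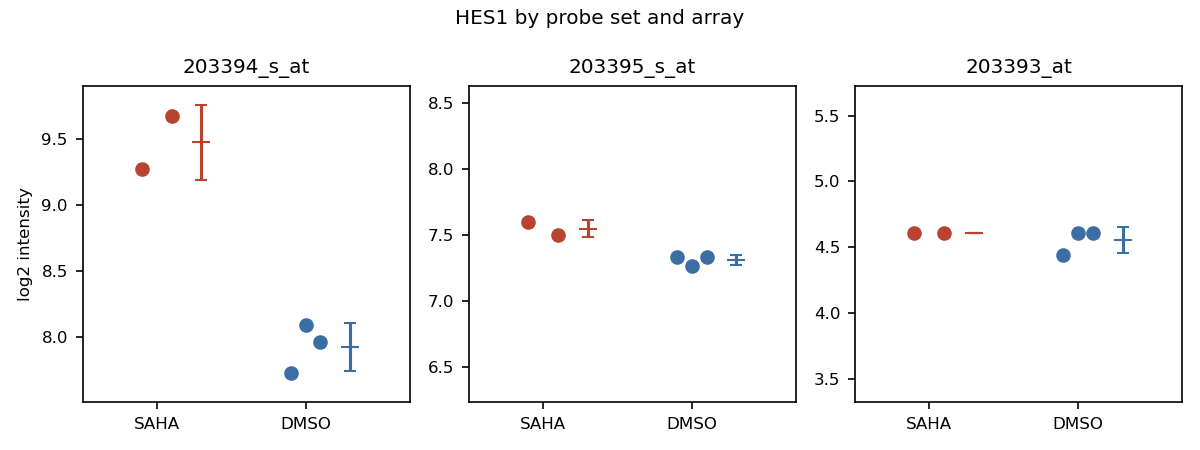
Log2 intensity of the 3 HES1 probe sets on each array, SAHA (red, n = 2) left of DMSO (blue, n = 3), with mean ± SD. Each panel spans the same range of log2 units. The groups are far apart for 203394_s_at (9.28 and 9.68 against 7.73 to 8.09), closer for 203395_s_at and on the same level for 203393_at.

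HEY1, a repressor that acts alone or paired with HES1 and is best known from blood vessels, rose less. Its brightest probe set (44783_s_at) read 7.73 and 7.76 in SAHA, against 7.30, 7.25 and 7.11 in DMSO. The groups did not overlap, and the spread within SAHA was small. The difference was 0.52 ± 0.07 (SE), or 1.44-fold (limma adjusted p = 0.00624). Leaving out SAHA 1 or SAHA 2 ended the call (limma adjusted p = 0.0567 or 0.0551), where the lone SAHA array is assumed to vary like the others, and centring on the polyadenylated controls gave 0.15 (limma adjusted p = 0.25).

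The second HEY1 probe set, 218839_at, read 6.89 and 6.90 in SAHA, against 6.78, 6.72 and 6.78 in DMSO. Its groups did not overlap either, but the difference was 0.13 ± 0.04 (SE) and did not pass (limma adjusted p = 0.0898). The responses of the pair differed by 0.39 ± 0.11 (SE), which did not pass (limma adjusted p = 0.0554).

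HEY2, a close relative of HEY1 with a role in heart and vessel development, did not pass on its brightest probe set. It read 5.24 and 5.45 in SAHA, against 5.00, 5.24 and 5.23 in DMSO, a difference of 0.19 ± 0.11 (SE, limma adjusted p = 0.286), and SAHA 1 equalled DMSO 2. Centred on the polyadenylated controls it was -0.18. All of these values lie below the median of each array. Probe set 219743_at read 5.43 and 4.81 in SAHA, against 4.70, 4.49 and 4.70 in DMSO, a difference of 0.48 ± 0.21 (SE) that did not pass (limma adjusted p = 0.201). With the 2 probe sets averaged HEY2 passed at 0.34 (limma adjusted p = 0.0296).

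Of the 8 other hairy-related factors measured, 0 rose and 2 fell, against 14% and 15.6% of all genes. The SAHA and DMSO arrays of 4 did not overlap, against 48.1% of all genes: HES6, BHLHE40 and HES7 (-0.24, limma adjusted p = 0.23) lay lower in SAHA and BHLHE41 (0.34, limma adjusted p = 0.0716) higher. HES6, which is known to counteract HES1, read 8.13 and 8.08 in SAHA, against 8.62, 8.52 and 8.59 in DMSO, and fell by 0.47 on the log2 scale (SE 0.05, limma adjusted p = 0.00334). BHLHE40, a circadian and hypoxia-responsive repressor, was -0.32 ± 0.08 (SE, limma adjusted p = 0.0433), a call that ended without DMSO 2, DMSO 3, SAHA 1 or SAHA 2 (limma adjusted p = 0.0943 to 0.173). HES4 (-0.15), HES5 (-0.05) and HEYL (-0.01) did not pass (limma adjusted p = 0.548, 0.433 and 0.976). With both of its probe sets averaged HEYL gave 0.26 (limma adjusted p = 0.0266), and without DMSO 1 HES4 gave -0.30 (limma adjusted p = 0.0242).

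The promoter letters were set beside these values. RefSeq windows of 250 bases before to 50 bases after a start were searched on both strands for GTGGGAA, and 6.25% of all 35116 windows held at least 1 and 0.248% at least 2. Windows of 8 of the 10 Notch genes were searched, and HEY1 and DLL1 were not covered. HES1 held 1 GTGGGAA, HEY2 held 2, and 1 of the 5 RBPJ windows held 2. NOTCH1, NOTCH2, NOTCH3, JAG1 and JAG2 held none. Among the non-members HES5 held 2, HES4 and HEYL held 1, and HES6, HES7 and NRARP held none. One stretch from each of the other windows with a match is printed to show the bases around the core, whose own letters the search fixed. Capitals mark the core, read as TTCCCAC where it lies on the other strand:
HES4: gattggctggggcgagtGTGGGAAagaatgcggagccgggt
HES5: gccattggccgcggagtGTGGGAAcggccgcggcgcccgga
HEYL: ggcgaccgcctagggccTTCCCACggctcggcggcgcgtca
HEY2: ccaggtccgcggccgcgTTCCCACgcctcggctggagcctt
RBPJ: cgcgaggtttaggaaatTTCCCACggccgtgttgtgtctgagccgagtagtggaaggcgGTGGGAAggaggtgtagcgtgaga
In GRCh38.p14 these are chr1:1000151-1000191 for HES4, chr1:2530321-2530361 for HES5 and chr1:39639798-39639838 for HEYL, all on the minus strand, and chr6:125749402-125749442 for HEY2 and chr4:26319614-26319696 for RBPJ on the plus strand. The core begins 85 bases before the start in HES1, 77 in HES4 and 81 in HES5, in the same orientation, and HES5 has its other core at -224 to -218 on the opposite strand. A match is a description of letters and not a bound site.

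The shorter TGGGAA, which every GTGGGAA contains, stood at least 1 time in 24% of all windows and at least 2 times in 3.8%. The HES1 window held 2. The N box CACNAG, which HES proteins are known to bind, stood at least 1 time in 38% of windows and at least 2 times in 8.94%. HES1 held 4 N boxes, NOTCH1 2 that overlap on opposite strands, and NOTCH2 and NOTCH3 1 each. Of the 5 RBPJ windows, 1 held 2 N boxes, and it was not the window with GTGGGAA. The E box CACGTG stood in 7.26% of windows and in none of the searched windows of the Notch genes.

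Among the receptors NOTCH1 fell and NOTCH2 rose, although NOTCH2 turned to -0.19 when arrays were centred on the polyadenylated controls. NOTCH1, the receptor best known from T-cell leukaemia, read 8.51 and 8.43 in SAHA, against 8.97, 9.01 and 9.14 in DMSO on its brightest probe set (218902_at). Both SAHA arrays lay below every DMSO array by more than the spread of either group. NOTCH1 fell by 0.57 on the log2 scale (SE 0.07), or 1.48-fold (limma adjusted p = 0.00485). It passed whichever array was left out (-0.61 to -0.52, limma adjusted p = 0.0163 to 0.0463), and was -0.60 without DMSO 1. Tested over all single-gene probe sets, the same probe set passed (limma adjusted p = 0.00755) but not without SAHA 1 or without SAHA 2 (limma adjusted p = 0.0564 or 0.0577).

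The second NOTCH1 probe set, 223508_at, read 6.09 and 6.07 in SAHA, against 6.27, 6.09 and 6.09 in DMSO. SAHA 1 equalled 2 of the DMSO arrays, and the difference of -0.07 did not pass (limma adjusted p = 0.559). The 2 probe sets differed in response by -0.50 ± 0.13 (SE, limma adjusted p = 0.0399). With both averaged NOTCH1 was -0.32 (limma adjusted p = 0.00598).

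NOTCH2, the other broadly expressed receptor, had the opposite sign in each of its 4 single-gene probe sets on the deposited scale. The brightest, 202443_x_at, read 13.07 and 13.07 in SAHA, against 12.92, 12.91 and 12.84 in DMSO. The difference was small, 0.18 ± 0.04 (SE), or 1.13-fold, and passed narrowly (limma adjusted p = 0.0406). That call was lost whichever array was left out (0.16 to 0.20, limma adjusted p = 0.0764 to 0.103), with quantile normalization run again and with array weights, and the centred value of -0.19 did not pass either (limma adjusted p = 0.138).

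The other NOTCH2 probe sets gave larger differences. Probe set 212377_s_at read 12.57 and 12.36 in SAHA, against 12.12, 12.09 and 12.00 in DMSO, a difference of 0.39 ± 0.08 (SE, limma adjusted p = 0.0332). Probe set 202445_s_at read 8.30 and 8.41 in SAHA, against 7.68, 7.86 and 7.82 in DMSO, a difference of 0.56 ± 0.08 (SE, limma adjusted p = 0.0102). Probe set 210756_s_at read 9.69 and 9.60 in SAHA, against 8.77, 9.41 and 9.37 in DMSO. Its difference of 0.46 did not pass (limma adjusted p = 0.252), and DMSO 1 was the low array: without it the difference was 0.25 (limma adjusted p = 0.0731).

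In all 4 of these NOTCH2 probe sets the SAHA arrays lay above the DMSO arrays. Averaged over them NOTCH2 was 0.40 (limma adjusted p = 0.0122). With each array left out in turn the call of 212377_s_at remained only without SAHA 2, and that of 202445_s_at ended without DMSO 3, SAHA 1 or SAHA 2 (limma adjusted p = 0.055 to 0.0671). A further probe set, 227067_x_at, is annotated to NOTCH2 and to 4 NOTCH2NL genes, partial human copies of it, and was kept out of the tests. It read 10.67 and 10.84 in SAHA, against 10.20, 10.08 and 10.28 in DMSO, a difference of 0.57. NOTCH2 probe sets may also read NOTCH2NL transcripts, so the NOTCH2 values are uncertain in that respect.

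NOTCH3, which is best known from vascular smooth muscle, did not pass on either probe set. The brighter, 203237_s_at, read 6.81 and 6.90 in SAHA, against 6.88, 6.90 and 6.93 in DMSO (difference -0.05, limma adjusted p = 0.508). The dimmer, 203238_s_at, read 5.45 and 5.82 in SAHA, against 5.41, 5.50 and 5.50 in DMSO, a difference of 0.16 (limma adjusted p = 0.419). The groups overlapped in both. NOTCH4, the endothelial receptor and no member, was -0.09 (limma adjusted p = 0.335).

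**Figure D3:**
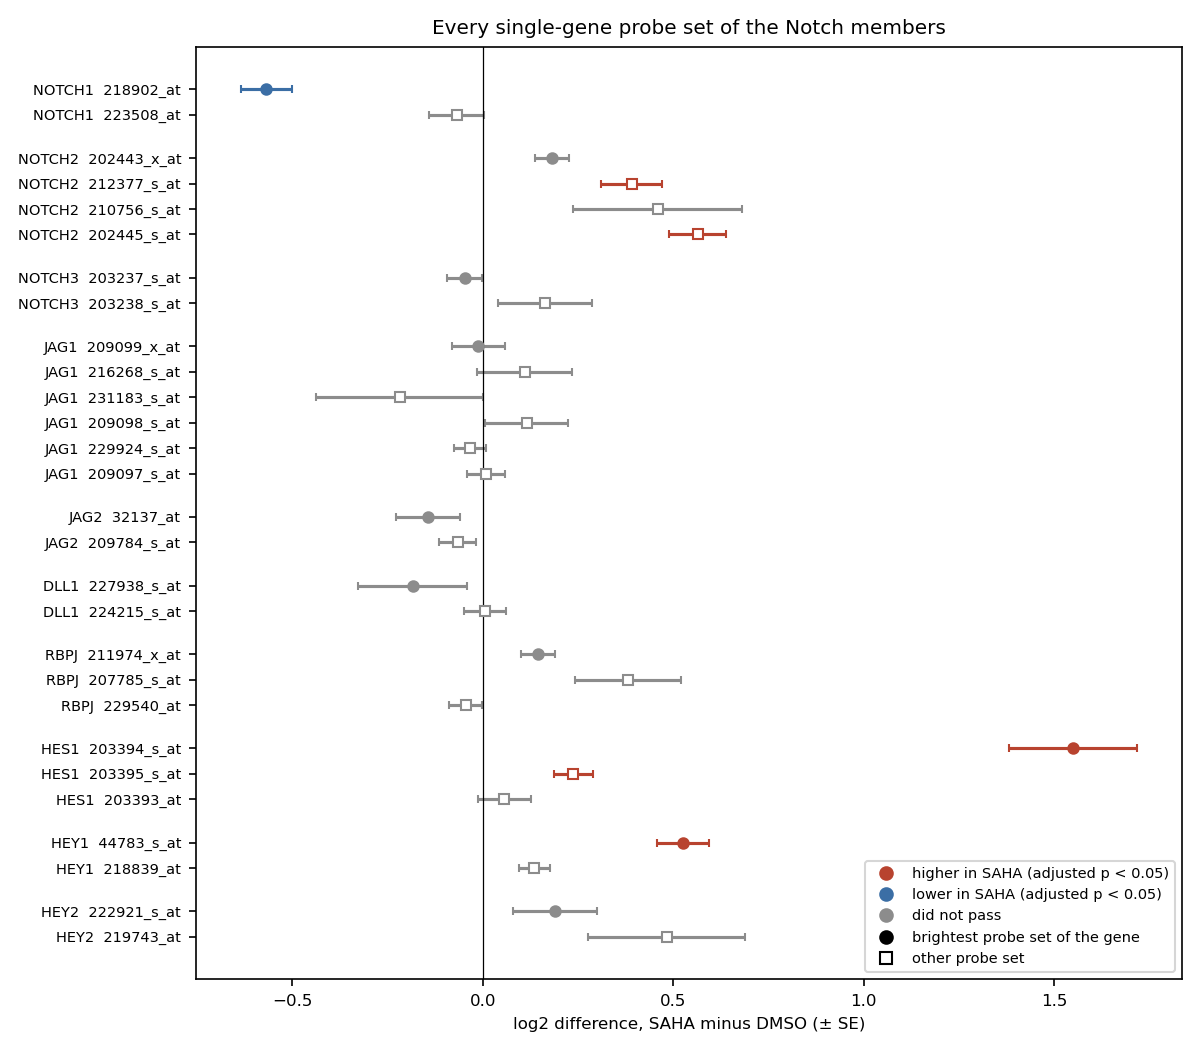
Log2 difference (SAHA minus DMSO) with its SE for each of the 28 single-gene probe sets, grouped by gene and ordered by brightness within a gene. Filled circles mark the brightest probe set and open squares the others, and colour marks the limma test over all 41091 single-gene probe sets. On this deposited scale the 4 NOTCH2 probe sets all lie to the right of 0, the 6 JAG1 probe sets lie around 0, and 203394_s_at of HES1 stands at 1.55.

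No ligand among the members passed. JAG1, the Jagged ligand most often tied to breast cancer, read 11.33 and 11.16 in SAHA, against 11.32, 11.24 and 11.22 in DMSO on its brightest probe set (209099_x_at), and the groups overlapped. The difference was -0.01 ± 0.07 (SE, limma adjusted p = 0.928), and the 6 JAG1 probe sets ranged from -0.22 to 0.11 with none that passed. The lowest of them, 231183_s_at, turned on 1 array: it read 8.81 and 8.10 in SAHA, against 8.67, 8.67 and 8.67 in DMSO. It gave -0.57 without SAHA 1 (limma adjusted p = 0.0221) and 0.14 without SAHA 2 (limma adjusted p = 0.044).

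JAG2, the second Jagged ligand, read 7.68 and 7.83 in SAHA, against 7.86, 7.82 and 8.01 in DMSO (32137_at). SAHA 2 lay within the DMSO range, and the difference of -0.14 ± 0.08 (SE) did not pass (limma adjusted p = 0.29). Its second probe set gave -0.07 (limma adjusted p = 0.397).

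DLL1, a Delta-like ligand, was dim and read 5.60 and 5.16 in SAHA, against 5.49, 5.60 and 5.60 in DMSO (227938_s_at). SAHA 1 equalled 2 of the DMSO arrays while SAHA 2 was the lowest of the 5, and the difference was -0.18 ± 0.14 (SE, limma adjusted p = 0.403). Without SAHA 1 it was -0.40 (limma adjusted p = 0.0486) and without SAHA 2 it was 0.04. The second probe set gave 0.00 (limma adjusted p = 0.969).

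RBPJ, the DNA-binding partner that all Notch receptors share, did not pass; its difference was positive on the deposited scale and -0.23 when arrays were centred on the polyadenylated controls. Its brightest probe set (211974_x_at) read 13.08 and 13.15 in SAHA, against 12.99, 12.93 and 12.98 in DMSO. The groups did not overlap, yet the difference was only 0.14 ± 0.05 (SE, limma adjusted p = 0.0825). Probe set 207785_s_at read 12.56 and 12.16 in SAHA, against 11.94, 12.10 and 11.91 in DMSO, a difference of 0.38 (limma adjusted p = 0.144), with SAHA 1 far above SAHA 2. The dim 229540_at was -0.05 (limma adjusted p = 0.511). RBPJ passed in 0 of the 17 alternatives run.

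Over the 28 probe sets 5 rose, 1 fell and 22 did not pass, and over all 41091 single-gene probe sets 22.1% were called, 11% higher and 11.1% lower. SAHA lay above DMSO in 11 of the 28 and below in 1, against 20.3% and 22.8% of all single-gene probe sets (43.1% in either direction). Of the 33 pairs of probe sets within these genes, 3 differed in response, against 14.8% of all 42435 pairs. These were both pairs with HES1 203394_s_at and the NOTCH1 pair. Values in the table were often repeated exactly between arrays, and 16 of the 28 probe sets held fewer than 5 distinct values. Levels of different probe sets were not set against each other.

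Of 75 further genes listed by role, 67 were measured, of which 10 rose, 15 fell and 42 did not pass, against 14% and 15.6% of all genes. Their median difference was -0.05 and that of all genes -0.03. Without DMSO 1, 8 were called higher and 13 lower, and centred on the polyadenylated controls 5 and 47. A change of at least 2-fold was called for 5 of the 67, against 5.75% of all genes. DNER, MAML3 and L3MBTL3 rose and EOGT and LFNG fell.

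**Figure D4:**
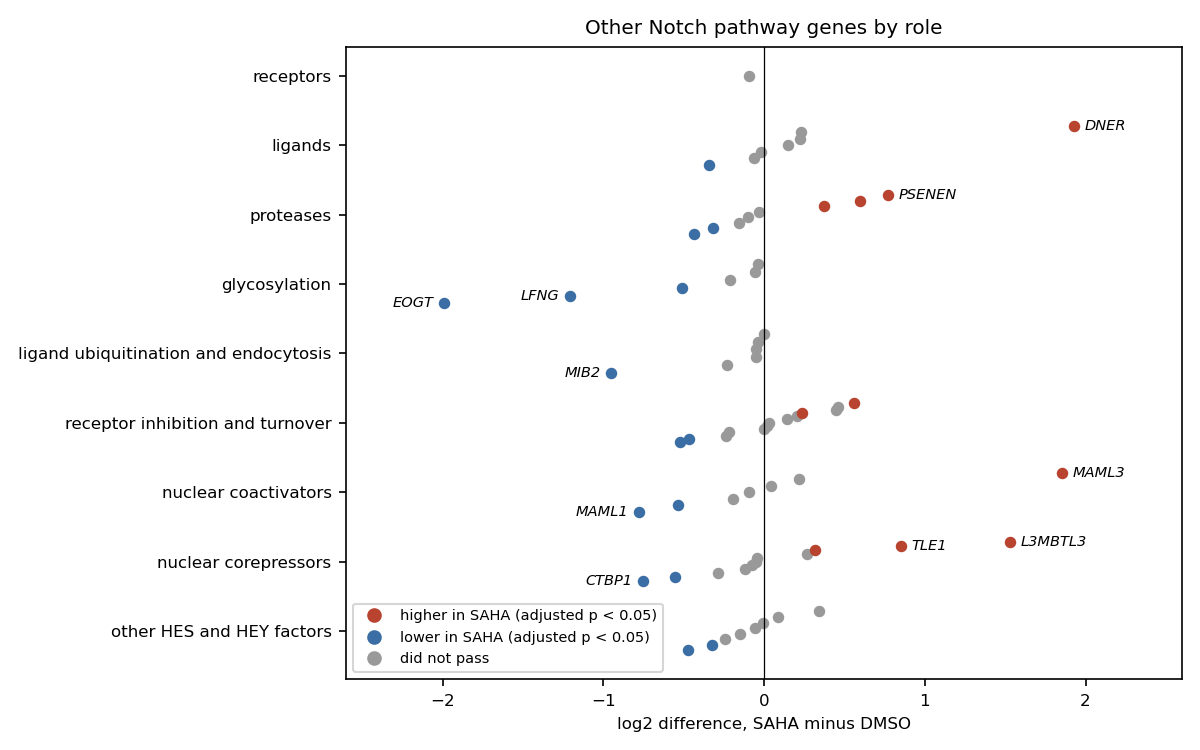
Log2 difference (SAHA minus DMSO) of the 67 measured pathway genes that are not members, by role. Each point is a gene, coloured by the limma test over all genes, and called genes beyond 0.7 are named. Called genes of glycosylation all lie to the left of 0 (EOGT at -1.99, LFNG at -1.21), while DNER, MAML3 and L3MBTL3 lie beyond 1.5 on the right.

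Of the ligand genes outside the members, 1 of 7 rose and 1 fell, against 14% and 15.6% of all genes. DNER, a membrane protein with Delta-like repeats described as a ligand in nerve and glial cells, read 10.19 and 9.87 in SAHA, against 8.24, 7.90 and 8.17 in DMSO. Both SAHA arrays were far above the DMSO arrays, and the difference was 1.93 ± 0.15 (SE, limma adjusted p = 0.0016), the largest rise among the Notch pathway genes measured. DLK2, which lacks the receptor-activating domain of other ligands, was -0.34 ± 0.06 (SE, limma adjusted p = 0.0121), not called without DMSO 3, SAHA 1 or SAHA 2 (limma adjusted p = 0.0507 to 0.0776). DLL3 (-0.07) and DLL4 (-0.02) did not pass (limma adjusted p = 0.643 and 0.916).

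Of 6 measured enzymes that put sugars on the receptor's EGF-like repeats, 0 rose and 3 fell, against 14% and 15.6% of all genes, and their median difference was -0.36. EOGT, which adds GlcNAc to the repeats, read 6.25 and 5.73 in SAHA, against 8.07, 7.99 and 7.87 in DMSO, and fell by 1.99 on the log2 scale (SE 0.17, limma adjusted p = 0.00203). LFNG, the Fringe enzyme that shifts receptors between Delta and Jagged ligands, read 7.31 and 7.09 in SAHA, against 8.47, 8.29 and 8.45 in DMSO. LFNG fell by 1.21 on the log2 scale (SE 0.10, limma adjusted p = 0.0017), while its other probe set was -0.04 and the mean of both -0.62 (limma adjusted p = 0.00447). POGLUT1, the O-glucosyltransferase of Notch, was -0.51 (limma adjusted p = 0.00686), and leaving out SAHA 1 or SAHA 2 ended its call (limma adjusted p = 0.0639 or 0.0559).

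Of 8 measured genes of the proteases that release the receptor, 3 rose and 2 fell, against 14% and 15.6% of all genes, with a median of -0.07. PSENEN, the smallest gamma-secretase subunit, read 10.56 and 10.68 in SAHA, against 9.62, 9.93 and 9.99 in DMSO (0.77 ± 0.13, SE, limma adjusted p = 0.0131). APH1B, another subunit, was 0.60 (limma adjusted p = 0.00928), and the sheddase ADAM10 was 0.37 (limma adjusted p = 0.0365). The catalytic subunit PSEN2 (-0.44, limma adjusted p = 0.0117) and nicastrin, encoded by NCSTN (-0.32, limma adjusted p = 0.0392), fell. ADAM17 was -0.03 (limma adjusted p = 0.741).

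Each of these protease calls depended on single arrays. PSENEN was not called without DMSO 2, SAHA 1 or SAHA 2 (limma adjusted p = 0.0524 to 0.0997), nor PSEN2 without the same arrays (0.0558 to 0.0795). APH1B was lost without SAHA 1 (0.0737), ADAM10 without DMSO 1, DMSO 2 or DMSO 3 (0.116 to 0.133) and NCSTN whichever array was left out (0.0642 to 0.135). Centred on the polyadenylated controls, ADAM10 was -0.0033 and APH1B 0.22 (limma adjusted p = 0.981 and 0.0928). With both of its probe sets averaged NCSTN was -0.26 (limma adjusted p = 0.0545), and with its 3 averaged PSEN2 was -0.25.

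Of 7 coactivators of the Notch and RBPJ complex, 1 rose, 2 fell and 4 did not pass, against 14% higher and 15.6% lower among all genes. MAML1, the best studied Mastermind-like protein, read 10.00 and 10.02 in SAHA, against 10.74, 10.83 and 10.79 in DMSO, and fell by 0.78 on the log2 scale (SE 0.04, limma adjusted p = 0.000919). MAML3 read 7.94 and 7.65 in SAHA, against 6.04, 5.99 and 5.79 in DMSO, a difference of 1.85 ± 0.12 (SE, limma adjusted p = 0.00114). MAML3 rested on 1 of its 3 probe sets: the lowest of the 3 gave -0.27, and the mean of all was 0.53 (limma adjusted p = 0.00535). MAML2 was 0.04 (limma adjusted p = 0.666). The acetyltransferase KAT2A was -0.54 (limma adjusted p = 0.0264) and was not called with any array left out (limma adjusted p = 0.0514 to 0.135).

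Of 11 corepressors measured, 3 rose and 2 fell, against the same shares of all genes. L3MBTL3, a methyl-lysine reader known to bind RBPJ, read 8.04 and 7.98 in SAHA, against 6.54, 6.31 and 6.60 in DMSO (1.53 ± 0.10, SE, limma adjusted p = 0.00114). TLE1, a Groucho corepressor that HES proteins recruit, read 12.29 and 12.29 in SAHA, against 11.39, 11.34 and 11.60 in DMSO (0.85 ± 0.09, SE, limma adjusted p = 0.00371), and 3 of its 5 probe sets were called higher. Its gene call was lost without SAHA 1 (limma adjusted p = 0.0507). CTBP1, which RBPJ and HES corepressor complexes use, read 11.01 and 11.15 in SAHA, against 11.79, 11.78 and 11.93 in DMSO, and fell by 0.75 on the log2 scale (limma adjusted p = 0.00279). Without shared-sequence probe sets CTBP1 was -0.06 (limma adjusted p = 0.646). TLE2 (0.32) and the shortened Groucho relative TLE5 (-0.55) passed (limma adjusted p = 0.0235 each) but not without DMSO 3, SAHA 1 or SAHA 2, nor TLE2 without DMSO 1 and TLE5 without DMSO 2 (limma adjusted p = 0.0563 to 0.136).

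Genes that restrain or turn over receptors and ligands included 2 that rose and 2 that fell of 13, and 1 of 6 ligand-handling genes fell. Over all genes 14% were called higher and 15.6% lower. MIB2, an E3 ligase that drives ligand endocytosis, read 7.48 and 7.25 in SAHA, against 8.45, 8.29 and 8.21 in DMSO, and fell by 0.95 on the log2 scale (SE 0.11, limma adjusted p = 0.0042). With its 5 probe sets averaged MIB2 was -0.24 (limma adjusted p = 0.0097). DTX4, a Deltex E3 ligase, was 0.56 (limma adjusted p = 0.0027), or 0.19 with centring on the polyadenylated controls (limma adjusted p = 0.139). ITCH, an E3 ligase for NOTCH1 known from mouse, was -0.47 (limma adjusted p = 0.00408), with -0.20 for its 6 probe sets averaged and -0.04 without shared-sequence probe sets. Of the 6 ITCH probe sets 2 were called lower, and the highest gave 0.35. DTX3 was -0.52 (limma adjusted p = 0.0266; -0.17 with its 5 probe sets averaged) and NUMBL, a relative of the Notch inhibitor NUMB, 0.24 (limma adjusted p = 0.0427). DTX3 was not called without DMSO 1, DMSO 3, SAHA 1 or SAHA 2 (limma adjusted p = 0.0618 to 0.164), nor NUMBL with any array left out (0.0731 to 0.17). NRARP, a Notch target that feeds back on the complex, was -0.22 ± 0.09 (SE, limma adjusted p = 0.148), with both SAHA arrays below the DMSO arrays, and -0.35 without SAHA 2 (limma adjusted p = 0.0282).

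**Figure D5:**
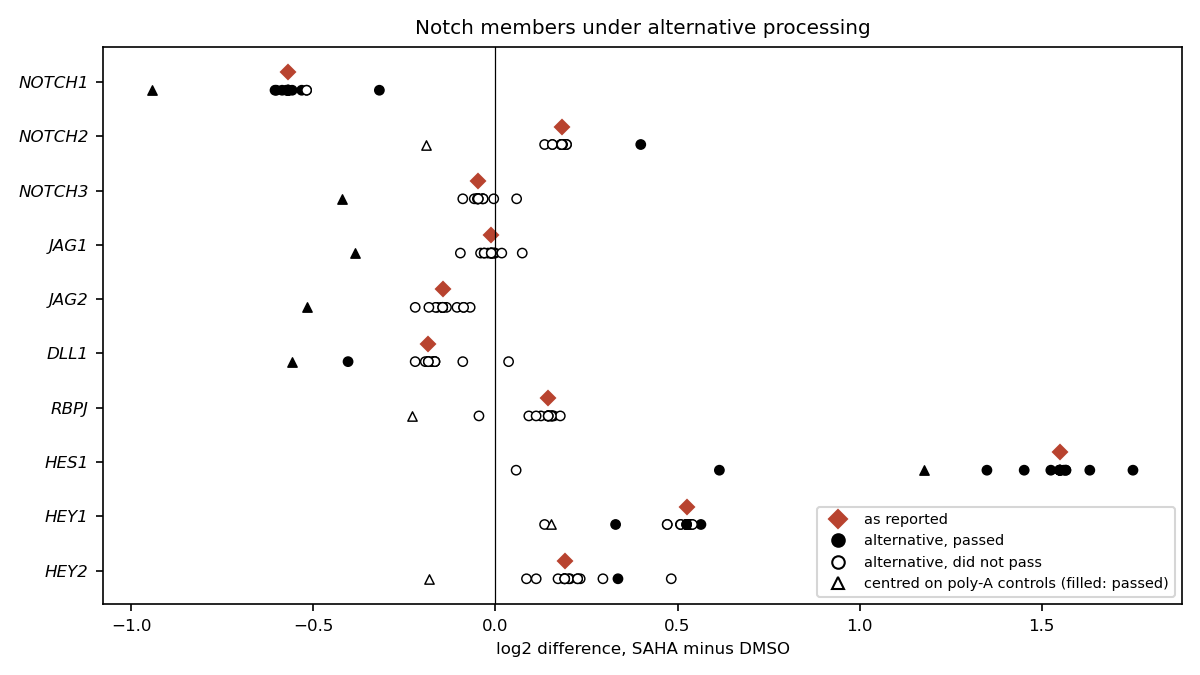
Log2 difference (SAHA minus DMSO) of the 10 Notch genes as reported (red diamonds) and under each alternative processing (black), filled where the gene passed. Triangles mark centring on the polyadenylated controls, which moves every gene to the left. HES1 and NOTCH1 stayed on their side in all 17 alternatives, from 0.06 to 1.75 and from -0.94 to -0.32.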

How the data were processed

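Total RNA from 5 samples of MDA-MB-231 cells was read on 5 arrays. Per the submitters' processing notes, the intensity values deposited by the authors were made with RMA in R 2.12, which corrects background, normalizes quantiles and summarises probes. The values (4.56 to 38935) were on a linear scale, so log2 was taken here and nothing was normalized again. Detection calls were not used, how far a signal stood above background is therefore not known, and the number of arrays limits the precision. Symbols came from the array annotation and were updated through gene identifiers. Of 54675 probe sets, 62 controls, 1801 with several genes and 11721 with none were left out.

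The brightest probe set stood for a gene. Groups were compared in R 4.3.3 with limma 3.58.1 (lmFit, eBayes, two-sided, no covariates, 3 residual degrees of freedom), with Benjamini-Hochberg adjustment over 19775 genes or 41091 probe sets. The members and lists were chosen with earlier results of these data known. Named were all members, up to 3 called genes in each direction per role, and a fixed panel. The fit over pairs of probe sets was added after values were seen. On simulated data with 19775 genes, 87% of 100 genes changed 2-fold and 46% of 100 changed by 0.5 on the log2 scale were recovered. Of the genes called there, 3.62% were false. The simulated share of changed genes was far below the 29.6% called here, so these rates may not hold for the real arrays. Promoter sequences are RefSeq's. Some listed genes are not reported here. Alternatives covered scaling, dim genes, probe set choice, variance model, array weights, arrays left out, a replicate block, equal values and a threshold of 0.01.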

Additional observations from a re-analysis of the deposited data

How the results depend on the processing

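Of 1134 values recomputed for single genes and probe sets under the alternatives, 967 stayed on their side of the threshold (931 with their sign, 36 uncalled ones with the sign changed), 127 lost the call, 28 gained one and 12 that were called on either side changed sign. Centred on the polyadenylated controls, 1380 of all genes were called higher and 14740 lower, against 2760 and 3089, so that 8.56% of calls were higher, against 47.2%; 1 Notch gene was higher and 5 lower, 5 further pathway genes higher and 47 lower, and 1 member probe set higher and 14 lower. That centring changed the sign of 18 values, 10 of them called before or after: NOTCH2 (-0.19), ADAM10 (-0.0033), MAML2 (-0.33), NUMBL (-0.14), TLE2 (-0.0545), JAG1 209098_s_at (-0.26) and 209097_s_at (-0.37), DLL1 224215_s_at (-0.37), and HES1 203395_s_at (-0.14) and 203393_at (-0.32). The 8 uncalled ones were RBPJ (-0.23) and HEY2 (-0.18), the brightest probe sets of RBPJ, HEY2 and NOTCH2 in the probe set fit, NOTCH3 203238_s_at (-0.21), JAG1 216268_s_at (-0.26) and HEY1 218839_at (-0.24). Averaging probe sets turned HEYL to 0.26. Leaving out 1 array at a time gave 1769 to 2234 genes higher and 1985 to 2797 lower, 1 to 2 Notch genes higher and 1 to 2 lower, 5 to 9 further pathway genes higher and 8 to 13 lower, 1 to 4 member probe sets higher and 0 to 1 lower, and moved JAG1 231183_s_at between -0.57 and 0.14. Without shared-sequence probe sets, where fewer genes were tested, 0 Notch genes were higher and 8 further genes lower. At an adjusted p of 0.01, 1544 genes were higher and 1773 lower, 6 further pathway genes higher and 8 lower, and 2 member probe sets higher.

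Whether the replicate numbers pair the samples was not settled. Same-numbered deviations from the group mean correlated at 0.15 and -0.07. With 2 SAHA arrays these deviations mirror each other, so the correlations cannot decide it. With the number as a replicate block, which drops DMSO 3, 1262 genes were higher and 1316 lower, 1 Notch gene higher and 0 lower, 6 further pathway genes lower, and 0 member probe sets higher and 0 lower. The cause of these changes was not tested. NOTCH2, NOTCH3, JAG1 and DLL1 have no value without shared-sequence probe sets, and DLL1 and HEY2 none without dim genes.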
